A study of Homo sapiens with 6 samples.

Results

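The 10 genes described are markers of neurons that were looked up in HEK293, a human embryonic kidney line whose RNA is known to hold many neuronal messages. They are GAP43, STMN2, UCHL1, TUBB3, DCX, MAP2, MAPT, SYT1, SNAP25 and CHGB, chosen by name from the 56794 genes of the deposited table. They account for 97 of its 203376 transcripts. The mutant libraries (n = 3) came from luciferase-expressing HEK293 cells labelled CASP8AP2 Mutant, in which CASP8AP2 was deleted with CRISPR according to the series' design. The parental libraries (n = 3) came from the luciferase-expressing line without that deletion. CASP8AP2 encodes a partner of caspase 8 that also takes part in histone message processing. The labels do not say where in the gene the deletion lies, whether the mutant line is a single clone, or whether replicates were separate cultures, so any p-value covers only the spread between these libraries.

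The table gave a group mean for each transcript and no value for single libraries, so levels carry no SD except where whole reads could be read back. Levels are abundances scaled by transcript length, with the authors' added 1 taken off and transcripts summed per gene. A log2 ratio is mutant over parental with 1 added to both, which draws the ratios of weak genes towards 0. A gene counts as measured where either group mean is 1 or more. The authors' p-values are of single transcripts, and one beside a gene's level is that of its main, most abundant, transcript. A p that is not called adjusted is unadjusted, also for the genes of the lists. CASP8AP2 itself had an abundance of 15.7 in mutant libraries and 15.9 in parental libraries, so its RNA does not check the labels. Estimated depth, in no label order, was about 57500000, 13300000 and 15000000 reads in the libraries labelled mutant and 11600000, 15300000 and 9190000 reads in parental ones. The deepest library was a mutant one, and the mutant group had the larger total.

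Neurons build a long microtubule cytoskeleton for axons and dendrites and release transmitter from vesicles through a calcium-triggered fusion machine. TUBB3, MAP2, MAPT, DCX and STMN2 belong to the microtubule side. GAP43 lies under the growth cone membrane. SYT1 and SNAP25 belong to vesicle release, CHGB to the dense core granules that store peptides and amines, and UCHL1 to the ubiquitin system. Many such genes are held down outside the nervous system by the repressor REST.

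Several of these genes are spliced differently in neurons than elsewhere, and the segments that set the forms apart are shown because the levels of each form are given with the genes. All were read 5′ to 3′ on the plus strand from the GENCODE 29 transcripts on build hg38, and all lie in coding exons. SNAP25 has alternative forms of exon 5, of which a transcript holds one or the other. The upstream form, known as exon 5a, prevails in the embryo and in endocrine cells, and the downstream form, exon 5b, in mature neurons. The exon was 118 bases long in both forms, which differed at 31 positions (73.7% identity), printed in capitals. The upstream form lies at chr20:10292882-10292999 and the downstream form at chr20:10293161-10293278.
SNAP25-202 exon 5, upstream form: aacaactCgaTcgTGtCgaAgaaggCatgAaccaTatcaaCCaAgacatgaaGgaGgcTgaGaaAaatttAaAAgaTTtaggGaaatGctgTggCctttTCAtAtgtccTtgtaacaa
SNAP25-201 exon 5, downstream form: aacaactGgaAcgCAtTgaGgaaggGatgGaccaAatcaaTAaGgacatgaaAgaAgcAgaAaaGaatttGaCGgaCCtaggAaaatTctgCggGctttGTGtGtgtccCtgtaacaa

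SYT1 has an alternative splice site that adds 9 bases, at chr12:79292008-79292016, to the start of an exon. They are in capitals in the transcript that holds them, with 20 bases of exon on each side, beside the transcript that lacks them.
SYT1-201: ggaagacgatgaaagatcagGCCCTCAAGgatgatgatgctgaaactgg
SYT1-204: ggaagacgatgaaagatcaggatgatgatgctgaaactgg

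The canonical coding transcript of UCHL1, UCHL1-201, holds a 12-base exon at chr4:41257115-41257126. UCHL1-209 skips it and extends the exon before it by 11 bases, at chr4:41257010-41257020, which is not a multiple of 3, and GENCODE lists it as a target of nonsense-mediated decay, the pathway that removes messages with an early stop codon. The 12 bases and the 11 bases are in capitals.
UCHL1-201: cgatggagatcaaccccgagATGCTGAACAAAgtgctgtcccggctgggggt
UCHL1-209: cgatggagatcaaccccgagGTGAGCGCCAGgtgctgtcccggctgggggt

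The neuronal markers were present at very unequal levels, and UCHL1 stood far above the others in both groups. Their summed abundance was 246 in mutant and 292 in parental libraries, of which UCHL1 made up 93.8% in mutant and 93.4% in parental ones. Without UCHL1 the sums were 15.2 in mutant and 19.2 in parental libraries. UCHL1 lay at the 98.3rd percentile of measured genes in the mutant and the 98.4th in the parental group. SYT1, MAPT and TUBB3 lay between the 27.3rd and the 33.8th percentile in mutant libraries, and between the 28.2nd and the 36.5th in parental libraries. SNAP25, GAP43 and MAP2 followed at 1.35, 0.986 and 0.990 in mutant libraries, against 2.81, 2.23 and 1.16 in parental libraries. CHGB was below 1 in both groups. STMN2 had no read in the mutant group and 2 in the parental group, and DCX had none in either. With group means alone, whether neighbours in this order differed beyond their spread could not be tested.

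Of the 10 genes, 7 were measured. For STMN2 and DCX no ratio is given, because neither group had more than 3 reads. Among the other 8, SYT1 and MAPT lay higher in mutant cells and 6 genes lower, at a median log2 ratio of -0.31. These 8 include CHGB, which was not measured, so they are not filtered as the genes below are. Over all 14856 measured genes, 49.4% lay higher and 50.6% lower, the median was -0.01, and the middle 9 in 10 of the ratios ran from -0.70 to 0.70. GAP43 and SNAP25, both at -0.70, stood at the lower edge of that range and the other members inside it. No member transcript was called: of the 69 tested in the authors' deposited table, 0 passed 0.05 after adjustment, where 0.0221% of 140552 transcripts did, and the smallest adjusted p among the members was 0.380. At an unadjusted p under 0.05 there were 5 of 69 (7.25%), 1 higher and 4 lower, against a background of 5.79% of transcripts, 3.30% higher and 2.48% lower. Among the main transcripts of all 14856 measured genes the share was 13.8%, with 5.17% higher and 8.63% lower. That share is the background for the measured genes of the lists below. In bulk RNA, fewer cells with a message and less of it per cell cannot be told apart.

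**Figure D1:**
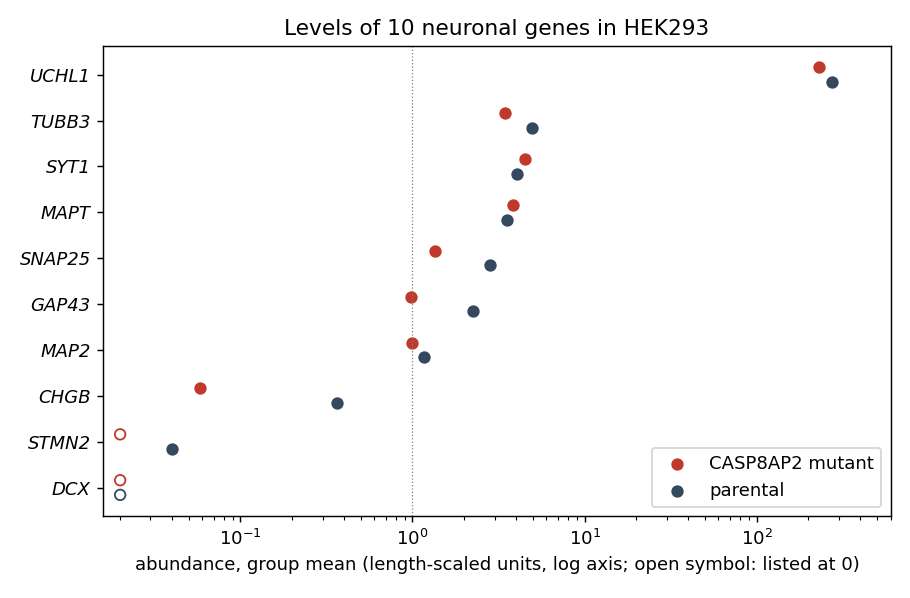
Abundance of the 10 genes (group means, log axis) in CASP8AP2 mutant (red) and parental (dark blue) HEK293 libraries, with values of 0 as open symbols at the left edge and the dotted line at an abundance of 1. UCHL1 stands at 231 (mutant) and 273 (parental), SYT1, MAPT and TUBB3 between 3.46 and 4.96, and STMN2 and DCX at or near 0.

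UCHL1, a ubiquitin hydrolase that is among the most abundant proteins of neurons, had an abundance of 231 in mutant and 273 in parental libraries, a log2 ratio of -0.24. The gene lies at chr4:41256413-41268455. Reads were assigned mostly to transcripts that GENCODE does not list as coding. How reads are shared among overlapping transcripts is an estimate by the authors' tool, for this and every other gene here. UCHL1-209, the decay target shown above, had 105 in mutant and 120 in parental libraries (p = 0.365 in the authors' deposited table). UCHL1-211, a short transcript with a retained intron, had 94.6 in mutant and 114 in parental libraries, and UCHL1-202, of the same type, had 19.2 (mutant) and 23.3 (parental). Transcripts of the decay type held 45.7% of the gene's abundance in mutant and 43.9% in parental libraries, and those with a retained intron 51.7% (mutant) and 51.4% (parental). Protein-coding transcripts held 2.65% in mutant and 4.61% in parental libraries.

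The coding share of UCHL1 rested mainly on UCHL1-210, a short coding transcript, which had 4.01 in mutant and 9.22 in parental libraries. Its p was 0.00670 and its adjusted p 0.521 in the authors' deposited table. UCHL1-207, also coding, had 0.308 in mutant and 1.65 in parental libraries (p = 0.0645 in the authors' deposited table). The canonical UCHL1-201 lay the other way, at 1.73 in mutant and 1.50 in parental libraries (p = 0.703 in the authors' deposited table). Among the transcripts that could hold it, the 12-base exon was in 4.79% of the abundance in mutant and 8.20% in parental libraries. Summed over coding transcripts alone, UCHL1 had a log2 ratio of -0.93, against -0.24 over all its transcripts.

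**Figure D2:**
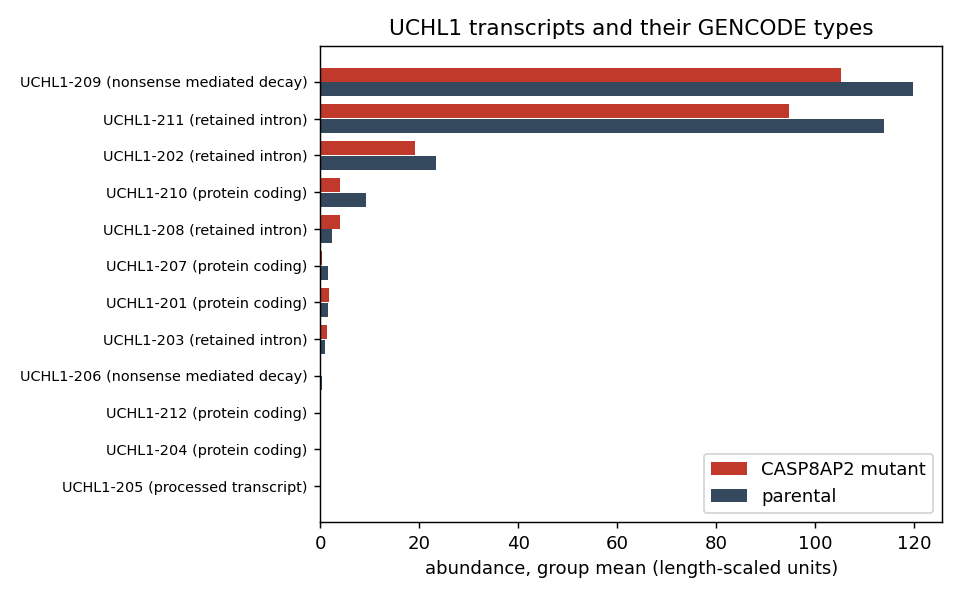
Abundance of the 12 UCHL1 transcripts (group means) in mutant (red, upper bar) and parental (dark blue, lower bar) libraries, with their GENCODE types. UCHL1-209 and UCHL1-211 hold most of the signal in both groups, and the coding UCHL1-210 stands at 4.01 (mutant) and 9.22 (parental).

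UCHL1 was also the leading gene of its family, with 73.5% of the summed abundance of the ubiquitin C-terminal hydrolases in mutant and 75.2% in parental libraries. BAP1, the nuclear member and a tumour suppressor, had 39.3 in mutant and 41.3 in parental libraries. UCHL3 had 26.6 (mutant) and 25.1 (parental), and UCHL5, which binds the proteasome, had 17.1 (mutant) and 23.6 (parental). None of these 3 relatives had a main transcript with a p under 0.05 in the authors' deposited table.

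The microtubule genes of the set were expressed weakly beside their ubiquitous relatives. TUBB3, the neuronal beta-tubulin that is used to stain neurons, had 3.46 in mutant and 4.96 in parental libraries, a log2 ratio of -0.42 (chr16:89921392-89938761). It ranked 7th of 9 beta-tubulins and held 0.535% of their sum in mutant and 0.664% in parental libraries. TUBB had 282 (mutant) and 400 (parental), and TUBB4B had 234 (mutant) and 216 (parental). TUBB3-201, the main transcript, had 2.34 in mutant and 3.94 in parental libraries (p = 0.359 in the authors' deposited table). TUBB3-206 had 0.275 in mutant and 0.545 in parental libraries. TUBB3-203 lay the other way, at 0.365 in mutant and 0.199 in parental libraries, or 10.6% (mutant) and 4.02% (parental) of the gene. Beta-tubulins are close in sequence, and AC092143.1, annotated on the same strand over TUBB3, had 0.166 in mutant and 0.258 in parental libraries, so the assignment to TUBB3 is uncertain. The antisense AC092143.2 had 0.329 (mutant) and 0.149 (parental), and the labels do not say whether strand was kept. Genes annotated over other members had at most 0.0425 in mutant and 0.0580 in parental libraries.

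MAPT, which encodes tau, the microtubule protein of axons, had 3.83 in mutant and 3.53 in parental libraries, a log2 ratio of 0.09 (chr17:45894382-46028334). MAPT-209 had 1.68 in mutant and 1.42 in parental libraries (p = 0.537 in the authors' deposited table). MAPT-210 had 1.22 (mutant) and 0.986 (parental). Exon 2, which encodes an insert near the start of tau, was in 44.1% in mutant and 42.1% in parental libraries, and exon 3, the next such insert, in 36.7% (mutant) and 34.4% (parental).

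MAP2, the microtubule protein of dendrites, had 0.990 in mutant and 1.16 in parental libraries, a log2 ratio of -0.12 (chr2:209424058-209734118). MAP2-205 held most of it, with 0.588 in mutant and 0.853 in parental libraries (p = 0.0767 in the authors' deposited table). MAP2-201 had 0.185 (mutant) and 0.0724 (parental) and the retained-intron MAP2-214 had 0.103 (mutant) and 0.0455 (parental), both with the larger mean in mutant libraries (p = 0.103 and 0.326 in the authors' deposited table). The long exon of 3726 bases, which sets the high-molecular-weight form of mature dendrites apart, was in 10.1% of the abundance in mutant and 2.90% in parental libraries, through MAP2-202 alone (0.0894 in mutant and 0.0280 in parental libraries; p = 0.118 in the authors' deposited table). MAP2-207 was the member transcript higher in mutant libraries at a p under 0.05 (p = 0.0245, adjusted p = 0.703 in the authors' deposited table), at an abundance of 0.0015 in mutant libraries and nearly 0 in parental ones. MAP4, the relative that most dividing cells use, held 92.8% of the sum of MAP2, MAPT and MAP4 in mutant and 93.0% in parental libraries.

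DCX, the microtubule protein of migrating young neurons, had an abundance of 0 in both groups over 11 transcripts (chrX:111293779-111412429). At an estimated 85800000 reads over the mutant and 36100000 reads over the parental libraries, a count of 0 allows up to 3 reads in each group. DCLK2, a relative with a kinase domain, had 7.97 in mutant and 3.70 in parental libraries, and DCLK1 had 1.45 (mutant) and 1.39 (parental). STMN2, which regulates microtubules in growing axons, had 0 reads in the mutant group and 2 in the parental group, both in 1 library. STMN1, the relative of dividing cells, held 95.7% of the stathmin sum in mutant and 97.6% in parental libraries. DCX and STMN2 were thus at or under the detection limit. MAPT had at least 940 reads in the mutant and 573 in the parental group. GAP43, a gene of growing axons, was detected too, with at least 82 reads in the mutant and 129 in the parental group.

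**Figure D3:**
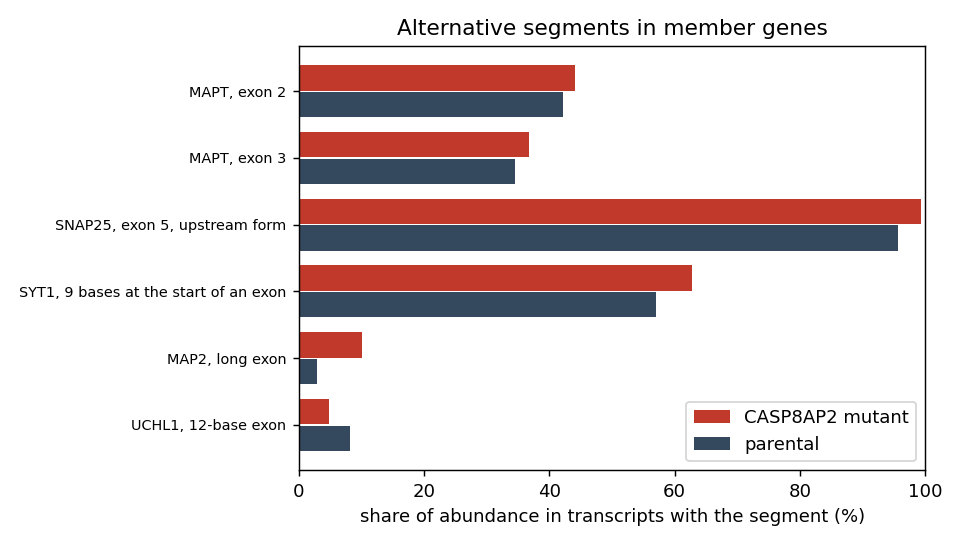
Share of abundance in transcripts that hold each alternative segment, among transcripts that could, in mutant (red, upper bar) and parental (dark blue, lower bar) libraries. The MAPT exon 2 bars stand at 44.1% (mutant) and 42.1% (parental), the upstream SNAP25 exon 5 at 99.4% (mutant) and 95.7% (parental), and the UCHL1 12-base exon at 4.79% (mutant) and 8.20% (parental). The downstream SNAP25 form had a few reads at most in mutant libraries.

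GAP43, a protein of the growth cone that lies at the inner membrane and takes part in axon growth, had 0.986 in mutant and 2.23 in parental libraries, a log2 ratio of -0.70 (chr3:115623324-115721490). Nearly all of it was GAP43-201. In the authors' deposited table its p of 0.00199 was the smallest of any member transcript and its adjusted p was 0.380, so the difference does not pass the threshold over all transcripts. The mean corresponds to between 82 and 355 reads in the mutant group and between 129 and 214 in the parental group, depending on which library the reads came from. GAP43 passed the abundance limit of 1 through the parental group alone, as did MAP2.

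Other proteins of the growth cone and axon membrane, from a list of 19 genes, lay mostly lower in mutant libraries and none had a main transcript with a p under 0.05 in the authors' deposited table. Of 15 measured, 3 lay higher and 12 lower, at a median log2 ratio of -0.18. MARCKSL1 and BASP1, which bind the inner membrane as GAP43 does, had 94.8 and 101 in mutant libraries, against 153 and 139 in parental libraries. RTN4, the gene of the axon growth inhibitor Nogo, had 91.4 in mutant and 110 in parental libraries, and MARCKS had 45.1 (mutant) and 51.3 (parental).

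SYT1, the calcium sensor of transmitter release, had 4.51 in mutant and 4.06 in parental libraries, a log2 ratio of 0.12 (chr12:78863993-79452008). SYT1-201, with the 9 bases shown above, had 2.69 in mutant and 2.21 in parental libraries (p = 0.616 in the authors' deposited table). SYT1-204, without them, had 1.65 (mutant) and 1.64 (parental). The 9 bases were in 62.8% of the abundance in mutant and 57.0% in parental libraries. SYT1-208, a short transcript, had 0 in mutant and 0.0893 in parental libraries (p = 0.0242, adjusted p = 0.703 in the authors' deposited table). SYT1 was the second most abundant of 17 synaptotagmins, after SYT9 with 8.08 in mutant and 5.18 in parental libraries.

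SNAP25, the plasma membrane SNARE protein of synapses, had 1.35 in mutant and 2.81 in parental libraries, a log2 ratio of -0.70 (chr20:10218830-10307418). SNAP25-202, with the upstream exon 5, had 1.06 in mutant and 2.37 in parental libraries (p = 0.348 in the authors' deposited table). SNAP25-201, with the downstream form, had 0.00645 in mutant and 0.106 in parental libraries (p = 0.222 in the authors' deposited table). Of the abundance with either form, the upstream one thus made up 99.4% in mutant and 95.7% in parental libraries, the form of the embryo and of endocrine cells. The mutant value of the downstream form amounts to a few reads at most, so how far the shares differ between groups is uncertain. SNAP25-205, a noncoding transcript, had 0.271 in mutant and 0.338 in parental libraries. The ubiquitous relatives were more abundant: SNAP47 had 18.2 in mutant and 17.2 in parental libraries, SNAP23 had 13.4 (mutant) and 12.9 (parental), and SNAP29 had 9.87 (mutant) and 11.4 (parental).

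Among 21 other genes of synaptic vesicle release, 15 were measured, 4 higher and 11 lower, at a median log2 ratio of -0.27. SV2A, a glycoprotein of the vesicle membrane, had 3.05 in mutant and 10.4 in parental libraries (log2 ratio -1.49; p = 0.000931 for its main transcript in the authors' deposited table). SYP, the vesicle protein synaptophysin, had 0.458 in mutant and 1.76 in parental libraries (log2 ratio -0.92; p = 0.0155 in the authors' deposited table), and passed the limit through the parental group alone. No other gene of the list had a p under 0.05. VAMP2, the vesicle SNARE that pairs with SNAP25, had 13.9 in mutant and 20.02 in parental libraries.

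CHGB, which encodes the granule protein secretogranin-1, had 0.0583 in mutant and 0.366 in parental libraries, a log2 ratio of -0.37 (chr20:5911430-5925361). Its values were low enough to be turned back into whole reads, which were 13, 2 and 2 in mutant libraries and 7, 20 and 14 in parental libraries. The 13 reads came from the deepest library, so the mutant group had fewer reads in all, 17 against 41, at more than the depth of the parental group. The main transcript, CHGB-201, had abundances of 0.0662, 0.0428 and 0.0211 in mutant libraries, against 0.164, 0.415 and 0.484 in parental libraries. Every mutant library lay below every parental one. The mean was 0.0434 ± 0.0225 in mutant and 0.354 ± 0.168 in parental libraries (SD, n = 3 each), a ratio of 0.122.

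An exact two-sided permutation test of CHGB-201 gave p = 0.1, the smallest that 3 against 3 libraries allow. The p-value of CHGB-201 was 0.0273 and its adjusted p 0.703 in the authors' deposited table. A fraction of a read in 1 mutant library was placed where it matched that p-value best, and the library sums do not depend on it. Among the granins CHGB ranked 4th of 6 in mutant and 3rd in parental libraries. SCG5, also called 7B2, led with 1.14 in mutant and 1.51 in parental libraries.

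**Figure D4:**
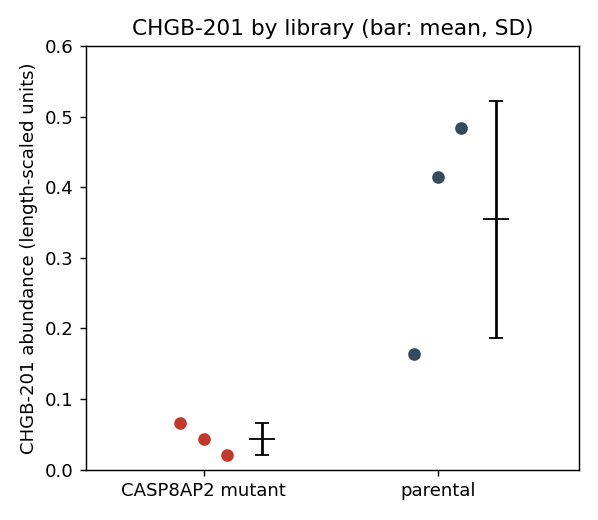
Abundance of CHGB-201 in each of 3 mutant (red) and 3 parental (dark blue) libraries, read back from the group means, with bars for mean and SD. The mutant libraries lie between 0.0211 and 0.0662 and the parental ones between 0.164 and 0.484.

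Of 13 other genes of dense core granules 4 were measured, 1 higher and 3 lower, at a median log2 ratio of -0.21. Among the 13, 1 main transcript lay higher and 3 lower at a p under 0.05 in the authors' deposited table. Over all 14856 measured genes, 5.17% lay higher and 8.63% lower at that limit. Those shares count measured genes alone, so they are no like background for the 13. The higher one of the 13 was of PTPRN2, a granule membrane protein. The gene had 1.10 in mutant and 0.702 in parental libraries (main transcript, p = 0.0333 in the authors' deposited table). The lower ones were of SCG3, a granin, PCSK2, a prohormone convertase, and CPE, the carboxypeptidase that trims peptide hormones. SCG3 had 0.0362 in mutant and 0.205 in parental libraries (p = 0.0230 in the authors' deposited table). PCSK2 had 0.0508 in mutant and 0.559 in parental libraries, and CPE had 59.0 in mutant and 72.1 in parental libraries (p = 0.0451 and 0.0452 in the authors' deposited table). PTPRN2 passed the abundance limit of 1 through the mutant group alone, and SCG3 and PCSK2 were under it in both groups, as CHGB was. PAM, which amidates peptides, had 39.99 in mutant and 46.0 in parental libraries.

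Of 19 other microtubule genes of neurons 17 were measured, 8 higher and 9 lower, at a median log2 ratio of -0.04. STMN1 had 384 in mutant and 622 in parental libraries (main transcript, p = 0.0339 in the authors' deposited table). MAP6, which stabilises cold-resistant microtubules, had 0.0954 in mutant and 0.577 in parental libraries (main transcript, p = 0.000709 in the authors' deposited table). It was under the abundance limit of 1 in both groups. The other genes of the list had no p under 0.05. TUBA1A, an alpha-tubulin of developing neurons, had 75.9 in mutant and 96.2 in parental libraries, TUBB2B had 52.3 (mutant) and 64.0 (parental), and TUBB2A had 19.96 (mutant) and 23.3 (parental).

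Neuronal RNA-binding proteins, which set the splicing of messages such as those above, showed no common direction. Of 13 listed 7 were measured, 4 higher and 3 lower, at a median log2 ratio of 0.00. PTBP2, the neuronal polypyrimidine tract protein, had 10.9 in mutant and 7.74 in parental libraries (main transcript, p = 0.0442 in the authors' deposited table). RBFOX2 had 26.0 in both groups, NOVA1 had 5.31 in mutant and 3.20 in parental libraries, and ELAVL2 had 4.12 (mutant) and 6.22 (parental). SRRM4, the splicing factor of neural microexons, was listed at 0 in both groups.

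REST, the repressor of neuronal genes, had 4.62 in mutant and 3.90 in parental libraries (p = 0.857 for its main transcript in the authors' deposited table). Of the 13 genes of REST and its cofactors, all measured, 6 lay higher and 7 lower, at a median log2 ratio of -0.19. At a p under 0.05, RCOR2, a CoREST protein, lay higher. Its level was 6.81 in mutant and 4.48 in parental libraries (main transcript, p = 0.00336 in the authors' deposited table). RCOR3, its relative, lay lower, with 10.4 in mutant and 13.5 in parental libraries (main transcript, p = 0.00846 in the authors' deposited table). HDAC1, a histone deacetylase, did too, with 53.3 in mutant and 73.3 in parental libraries (main transcript, p = 0.0274 in the authors' deposited table). HDAC2 had 127 in mutant and 147 in parental libraries, and KDM1A, a histone demethylase of the complex, had 47.7 (mutant) and 57.0 (parental). CTDSP2, a phosphatase that acts with REST, had 27.0 in mutant and 20.4 in parental libraries (main transcript, p = 0.262 in the authors' deposited table).

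Of 18 transcription factors of proneural and sympathoadrenal lineages 8 were measured, 6 higher and 2 lower, at a median log2 ratio of 0.23. MYT1, 1 of the 6, passed the limit through the mutant group alone, where it had 1.40 against 0.831 in parental libraries. The median over all 18 listed genes was 0.04. HAND2, a factor of sympathetic neurons, had 3.08 in mutant and 1.93 in parental libraries (main transcript, p = 0.0434 in the authors' deposited table). INSM2 stayed below 1, at 0.0819 in mutant and 0.0448 in parental libraries (p = 0.0438 in the authors' deposited table). GATA3 had 20.7 in mutant and 17.5 in parental libraries, POU4F1 had 14.1 (mutant) and 10.5 (parental), GATA2 had 10.1 (mutant) and 8.48 (parental), and INSM1 had 6.09 (mutant) and 9.31 (parental). Over the 8 lists together, 82 of 119 genes were measured, 33 higher and 49 lower, with a median of -0.18. Of these 82, 3 passed the limit through the mutant group alone and 2 through the parental group alone. Among the 119, 5 main transcripts lay higher and 9 lower at a p under 0.05 in the authors' deposited table. Among the 82 measured ones there were 10 (12.2%), 4 higher and 6 lower. Over all 14856 measured genes the share was 13.8%, with 5.17% higher and 8.63% lower, so that of the lists lay near the background.

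**Figure D5:**
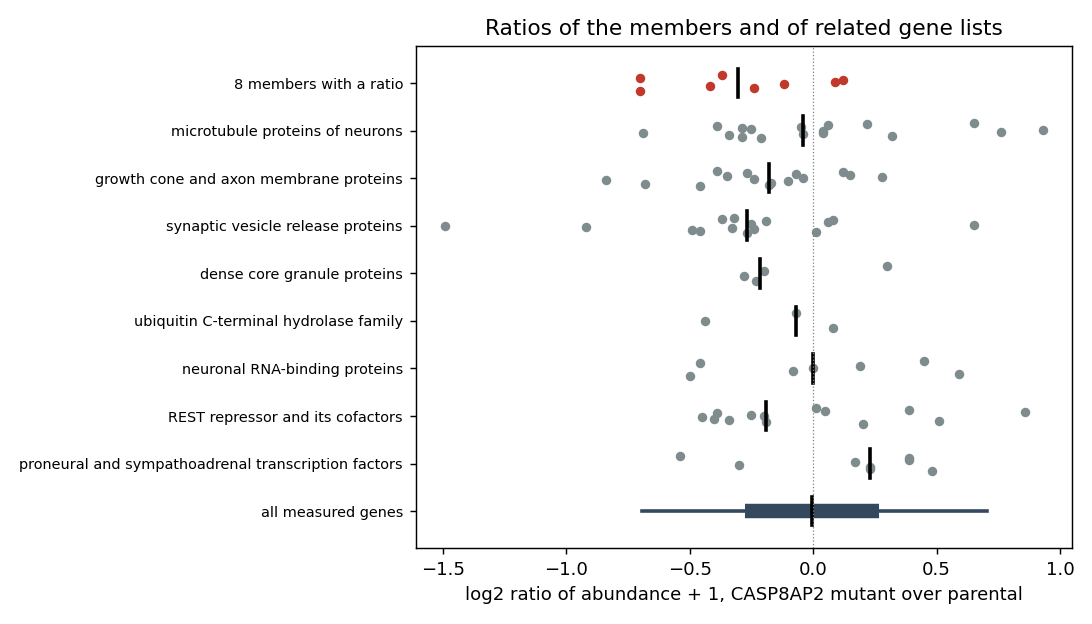
Log2 ratios (mutant over parental, 1 added to abundance) of the 8 members with a ratio (red) and of the measured genes of 8 related lists (grey), with the median of each row as a black line. The bottom row gives all 14856 measured genes, with the quartiles as a thick bar and the range of 5% to 95% as a thin line. GAP43 and SNAP25 stand at -0.70 and SV2A at -1.49.

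No list of cell type markers was expressed in full. Of the other pan-neuronal markers, RBFOX3 had 2.36 in mutant and 1.94 in parental libraries, SYN1 had 0.0657 (mutant) and 0.0542 (parental), ELAVL3 had 0.0741 (mutant) and 0.0927 (parental), and ELAVL4 was listed at 0 in both groups. The last of these markers, SYP, is the vesicle protein given above, at 0.458 in mutant and 1.76 in parental libraries. The label neuronal thus holds for single genes and not for the full marker set. Of 9 markers of kidney epithelium 5 were measured, 1 higher and 4 lower, and the sum of the 9 was 94.5 in mutant and 134 in parental libraries. KRT8, an epithelial keratin, had 37.3 in mutant and 70.6 in parental libraries (p = 0.0178 in the authors' deposited table), EPCAM had 1.16 in mutant and 2.02 in parental libraries (p = 0.0128 in the same table), and KRT18 had 51.8 (mutant) and 57.7 (parental). PAX2, a factor of the developing kidney, lay the other way. It had 3.08 in mutant and 1.80 in parental libraries (main transcript, p = 0.289 in the authors' deposited table). Their part in the values of the neuronal genes was not tested.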

How the data were processed

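RNA-seq libraries were made with a NEBNext Ultra kit and random primers, per the labels' protocols, and bcl2fastq, STAR, Partek and build hg38 are named in the submitters' processing notes. The authors deposited 1 table of their own comparison. Its LSMean score is a group mean with 1 added, its signal column is a total over libraries, and its p-value, adjusted p, ratio and fold columns are scores given per the file headers. Abundance summed to 496162 in the mutant and in the parental group, so levels are relative to a common total. No unit beyond this and length scaling could be read from the values.

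Abundance (LSMean minus 1) was summed per gene with Python 3.11.15, pandas 2.3.3, numpy 2.4.6 and scipy 1.17.1. Only group means were given, so no test was run across genes and p-values are the authors', except an exact permutation test of CHGB-201. A gene's main transcript is its most abundant one. GENCODE 29 held 99.06% of transcripts. Transcripts with reads in 1 library showed what 1 read is worth, which gave depth and, for CHGB, STMN2 and DCX, whole reads (tolerance 1e-08, no other solution within 1e-06). All 10 members were tried, and the decoding was tested on simulated data.

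The members and lists were chosen with earlier results of these data known. Families, alternative segments, the sequences shown, the decoding with its tolerance and the limit of 0.2 for a moved log2 ratio were chosen after values were seen. From each list the 4 genes of highest level and up to 4 with a deposited p under 0.05 were named; ELAVL4, SRRM4, REST and other genes named beside them, and relatives of the members, were chosen for their roles. The limit of 3 reads that a count of 0 allows covers counting error only. Some results are not reported here.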

Additional observations from a re-analysis of the deposited data

How the results depend on the processing

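No paired analysis was possible because the deposited table gives group means and no values of single libraries, and for the same reason leaving out libraries was possible for CHGB-201 alone. Of 32 log2 ratios of member genes under alternatives, 26 moved by less than 0.2 in the same direction. With 0.1 added in place of 1, the log2 ratio was -1.10 for GAP43, -1.01 for SNAP25 and -1.56 for CHGB. With protein-coding transcripts alone it was -0.93 for UCHL1. With the trend over GC content taken out it was -0.64 for TUBB3 and 0.03 for MAP2, which turned its sign. The count of member transcripts called was 5 at an unadjusted p under 0.05, in place of 0 at an adjusted p under 0.05, and these are the transcripts named. Of 24 list medians 23 moved by less than 0.2, and that of the neuronal RNA-binding proteins was 0.23 at an abundance of at least 5. Leaving out 1 library at a time gave log2 ratios of CHGB-201 between -0.47 and -0.31, with 1 added. That alternative was added after seeing the data. Causes of the shifts other than the added constant and the transcripts left out were not tested. Depth limits DCX in both groups and STMN2 in the mutant group, where a count of 0 allows up to 3 reads.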

Other observations

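Glial markers were also present in part, and of 5 chromaffin markers 1 was measured. MBP, the myelin basic protein gene, had 4.002 in mutant and 2.74 in parental libraries, and OLIG2, a factor of the oligodendrocyte lineage, had 3.76 (mutant) and 2.49 (parental), while the lineage factor SOX10 had 0.0515 (mutant) and 0.0994 (parental). SLC1A3, a glutamate transporter of astrocytes, had 14.4 in mutant and 17.7 in parental libraries, and GFAP had 0.329 (mutant) and 0.121 (parental). PNMT, the enzyme that makes adrenaline, had 1.07 in mutant and 0.633 in parental libraries, and passed the limit of 1 through the mutant group alone. TH, at the start of that pathway, was listed at 0 in both. The other chromaffin markers were near 0: DDC had 0.105 (mutant) and 0.0982 (parental), SLC18A1 had 0.0198 (mutant) and 0 (parental), and DBH had 0.0116 (mutant) and 0 (parental). None of the 16 markers of these 3 cell types had a main transcript with a p under 0.05 in the authors' deposited table, where TH had no p. Measured among them were 1 of 5 astrocyte, 2 of 6 oligodendrocyte and 1 of 5 chromaffin markers. Over all 14856 measured genes the share at that limit was 13.8%, from which so few markers cannot be told apart.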
